A study of Homo sapiens with 12 samples.

Results

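Exposure to the spleen tyrosine kinase (SYK) inhibitor entospletinib (Ento) alone was compared with the DMSO vehicle in SU-DHL-4, an established cell line of diffuse large B-cell lymphoma (DLBCL) of the germinal-centre B-cell type. Cells were exposed to 1 µM Ento or to DMSO for 72 h, and polyadenylated RNA was sequenced from 3 libraries in each group. Both groups were the same line, labelled as wild type (wt), so that the values describe 1 cell line, 1 dose and 1 time. The comparison used 6 of the 12 libraries of the series and took every gene that passed a filter on low counts, 16835 of the 46863 genes in the count table. The other 6 libraries, 3 exposed to 0.01 µM AZD5153 (AZD), a bivalent BET inhibitor, and 3 to 1 µM Ento with 0.01 µM AZD for 72 h, entered the same fit and served as a second setting in which Ento was added.

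SYK is a cytoplasmic tyrosine kinase that binds the phosphorylated tails of CD79A and CD79B when the B-cell receptor (BCR) is engaged. It then phosphorylates the adaptor BLNK, and with BTK, PLCG2, VAV proteins and PI3-kinase it passes the signal on to calcium, ERK, NF-κB and AKT. AKT keeps the FOXO1 transcription factor out of the nucleus. Germinal-centre B cells carry a programme set by BCL6, BACH2 and their partners, which strong receptor signals end in favour of plasma-cell or memory genes.

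The 6 libraries held between 19689990 and 24675830 counted reads, so that 1 count corresponded to 0.0393 to 0.0512 CPM. CPM values (read counts scaled to library size, here with TMM factors) compare libraries, not genes of different length. The 11 B-lineage markers examined were counted in every library. With Ento 6 of them rose (54.5%, beside 4.66% of all tested genes), and 3 when any one Ento library or DMSO replicate 3 was left out. The list had a summed level of 5427 to 7694 CPM with DMSO and 6051 to 9481 CPM with Ento. Of 21 markers of T, NK, myeloid and other blood cells, 10, among them CD3D, CD2, MPO and S100A8, had no count in any DMSO library and 11 had none in any Ento library. Of the 3 that were tested, 0 were called with edgeR or with DESeq2 and 0 had an unadjusted p under 0.05, and the sum of the list was 3.55 to 5.30 CPM with DMSO and 3.50 to 6.09 CPM with Ento. Libraries with the same replicate number deviated together from their group means, and the number was a term of the model. The study's methods describe its samples as biologically independent and put a batch term in the model of these libraries, and the labels give the replicate number. MKI67, the proliferation antigen, had 668, 801 and 1205 CPM with DMSO and 921, 397 and 845 CPM with Ento. Ento replicate 2 was lowest and DMSO replicate 3 highest, and its adjusted p was 0.292. Results that rested on a single library are given with and without it.

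Ento exposure changed 1401 of the 16835 tested genes at an adjusted p under 0.05 (8.32%). All p-values of genes here are from edgeR's quasi-likelihood F test, adjusted by the Benjamini-Hochberg method over all tested genes. Of these, 784 rose (4.66% of those tested) and 617 fell (3.66%). Most changes were modest, with a median log2 fold change of 0.58 among genes that rose and −0.51 among those that fell, beside a median of 0.0094 over all tested genes. Differentially expressed genes (DEGs), with an absolute log2 fold change over 1 as well, numbered 275 (1.63%), of which 185 were overexpressed (1.1%) and 90 underexpressed (0.535%). All 617 genes that fell and 782 of the 784 that rose moved the same way in the 3 replicate-numbered pairs. The Ento and DMSO ranges did not overlap for 485 of the genes that rose and 430 of those that fell. Over all tested genes, the Ento libraries lay wholly above the DMSO libraries for 8.07% and wholly below for 7.08%.

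The number of calls depended on the libraries. When each of the 6 libraries was left out in turn, the number of genes called lay between 427 (without Ento replicate 2) and 1332 (without DMSO replicate 1). It was 442 without Ento replicate 1 and 829 without Ento replicate 3. The call of 299 genes held in all 6 of these fits, 198 that rose and 101 that fell, and calls that held in this way are named as such below. Without the replicate number as a term, 36 genes were called, all of them among the 1401. Of the genes named below, LTB, RASSF6, AIM2, SLC8A1, MELTF, TSPAN18, SPARCL1 and C12orf77 were still called in that fit, with adjusted p-values between 0.00123 (SLC8A1) and 0.0378 (AIM2). The calls of the other named genes rest on the comparison within replicate numbers.

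**Figure D1:**
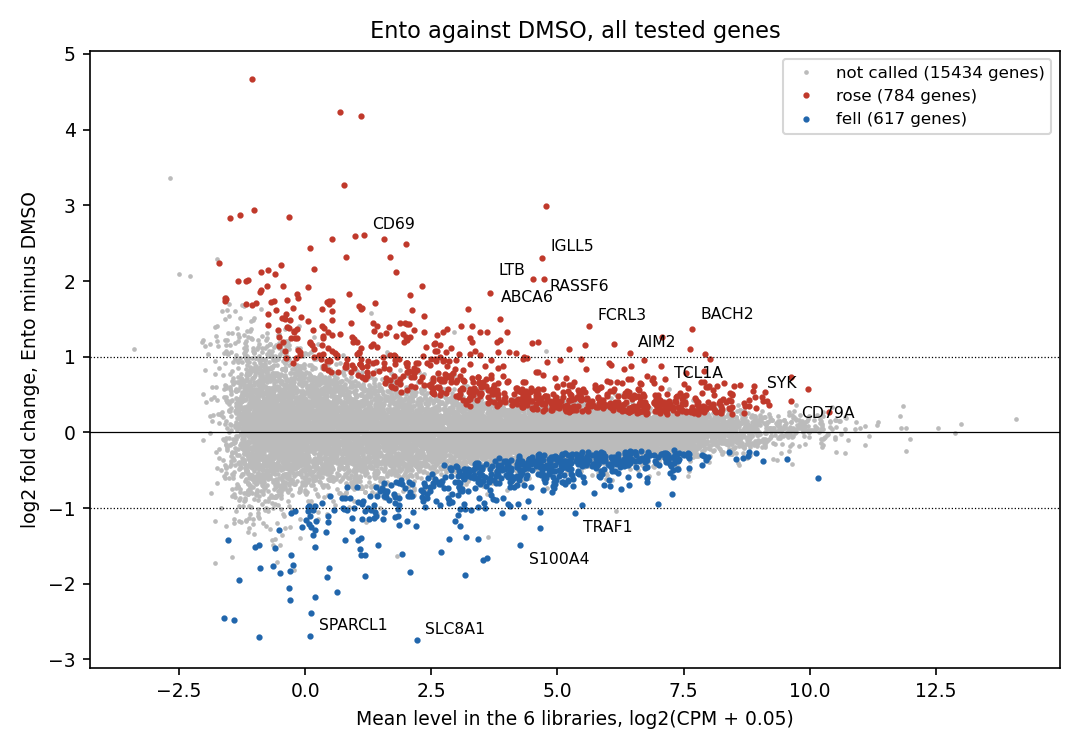
Every tested gene by its mean level in the 3 DMSO and 3 Ento libraries (x axis, log2 of CPM + 0.05) and its log2 fold change, Ento minus DMSO (y axis), with genes that rose in red, genes that fell in blue and the others in grey; dotted lines mark a log2 fold change of 1 in either direction. Most of the 784 genes that rose and the 617 that fell lie inside the dotted lines, and RASSF6 and SLC8A1 are labelled at 2.03 and −2.74.

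Many genes of the germinal-centre B-cell programme rose with Ento. Of 37 listed genes, 17 rose (45.9%, beside 4.66% of all tested genes) and the median log2 fold change was 0.28. None of them fell at an adjusted p under 0.05 with edgeR or with DESeq2, and 3 were lower at an unadjusted p under 0.05 with edgeR (2 with DESeq2), beside 12.8% of all tested genes higher and 11.5% lower at that level. In the single pairs the median of the list was 0.23, 0.30 and 0.24, with 31, 30 and 30 of the 37 genes higher. The number that rose was 8 without Ento replicate 1, 8 without Ento replicate 2 and 13 to 15 without any other library, and 1 member fell without DMSO replicate 1. It was 2, RASSF6 among them, when the model had no term for the replicate number.

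BACH2 (GRCh38, chromosome 6, 89926528 to 90296843, minus strand), a transcriptional repressor that holds B cells in the germinal-centre state and opposes plasma-cell differentiation, had 98.4, 156 and 91.6 CPM with DMSO and 289.7, 351 and 236 CPM with Ento. Each pair rose more than 2-fold and the groups did not overlap (log2 fold change 1.36, standard error 0.10, adjusted p = 4.82e-06).

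TCL1A (chromosome 14, 95709947 to 95714196, minus strand), an AKT coactivator abundant in germinal-centre B cells, rose from 76.5, 91.8 and 111 CPM to 143, 152 and 222 CPM without overlap (log2 fold change 0.88, standard error 0.11, adjusted p = 0.000296). RASSF6 (chromosome 4, 73571550 to 73620631, minus strand), a RAS-association domain protein of the Hippo pathway, had 7.23, 7.51 and 11.3 CPM with DMSO and 28.3, 22.5 and 60.6 CPM with Ento. Ento replicate 3 was the highest, but each Ento library was above the DMSO range (log2 fold change 2.03, standard error 0.20, adjusted p = 6.14e-05). SUGCT, an enzyme of glutarate metabolism used as a transcript marker of germinal-centre lymphoma, was low and rose from 1.08 ± 0.491 to 5.27 ± 1.98 CPM (SD, n = 3 each; log2 fold change 2.31, standard error 0.31, adjusted p = 0.000551). POU2AF1, the octamer coactivator OCA-B that germinal centres require, and ELL3, a transcription elongation factor of B cells, rose by 0.47 and 0.46 on the log2 scale (adjusted p = 0.000875 and 0.00266). The calls of these 6 genes held without each of the 6 libraries.

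A further 10 genes of the list that rose had log2 fold changes between 0.28 and 0.78 and lost their call when at least 1 library was left out. They included S1PR2, the receptor that confines B cells to the follicle centre (193 ± 13.4 and 249 ± 28.6 CPM), CD38, an ectoenzyme of germinal-centre and plasma cells (267 ± 26.6 and 341 ± 21.5 CPM), and SPIB, an ETS factor of B cells (209 ± 55.3 and 263 ± 42.5 CPM; SD, n = 3 each). The adjusted p of S1PR2 was 0.0113, and 0.0607 without Ento replicate 1 and 0.0684 without Ento replicate 2. That of CD38 was 0.0140, and 0.0534 without Ento replicate 1 and 0.0972 without Ento replicate 2. That of SPIB was 0.0244, and 0.0813 to 0.0999 when any one library but DMSO replicate 1 and DMSO replicate 2 was left out. BCL6, the master repressor of the germinal centre, had 616, 858 and 777 CPM with DMSO and 724, 912 and 629 CPM with Ento. It was higher in pairs 1 and 2 and lower in pair 3, and was not called (log2 fold change 0.0033, standard error 0.10, adjusted p = 0.990).

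**Figure D2:**
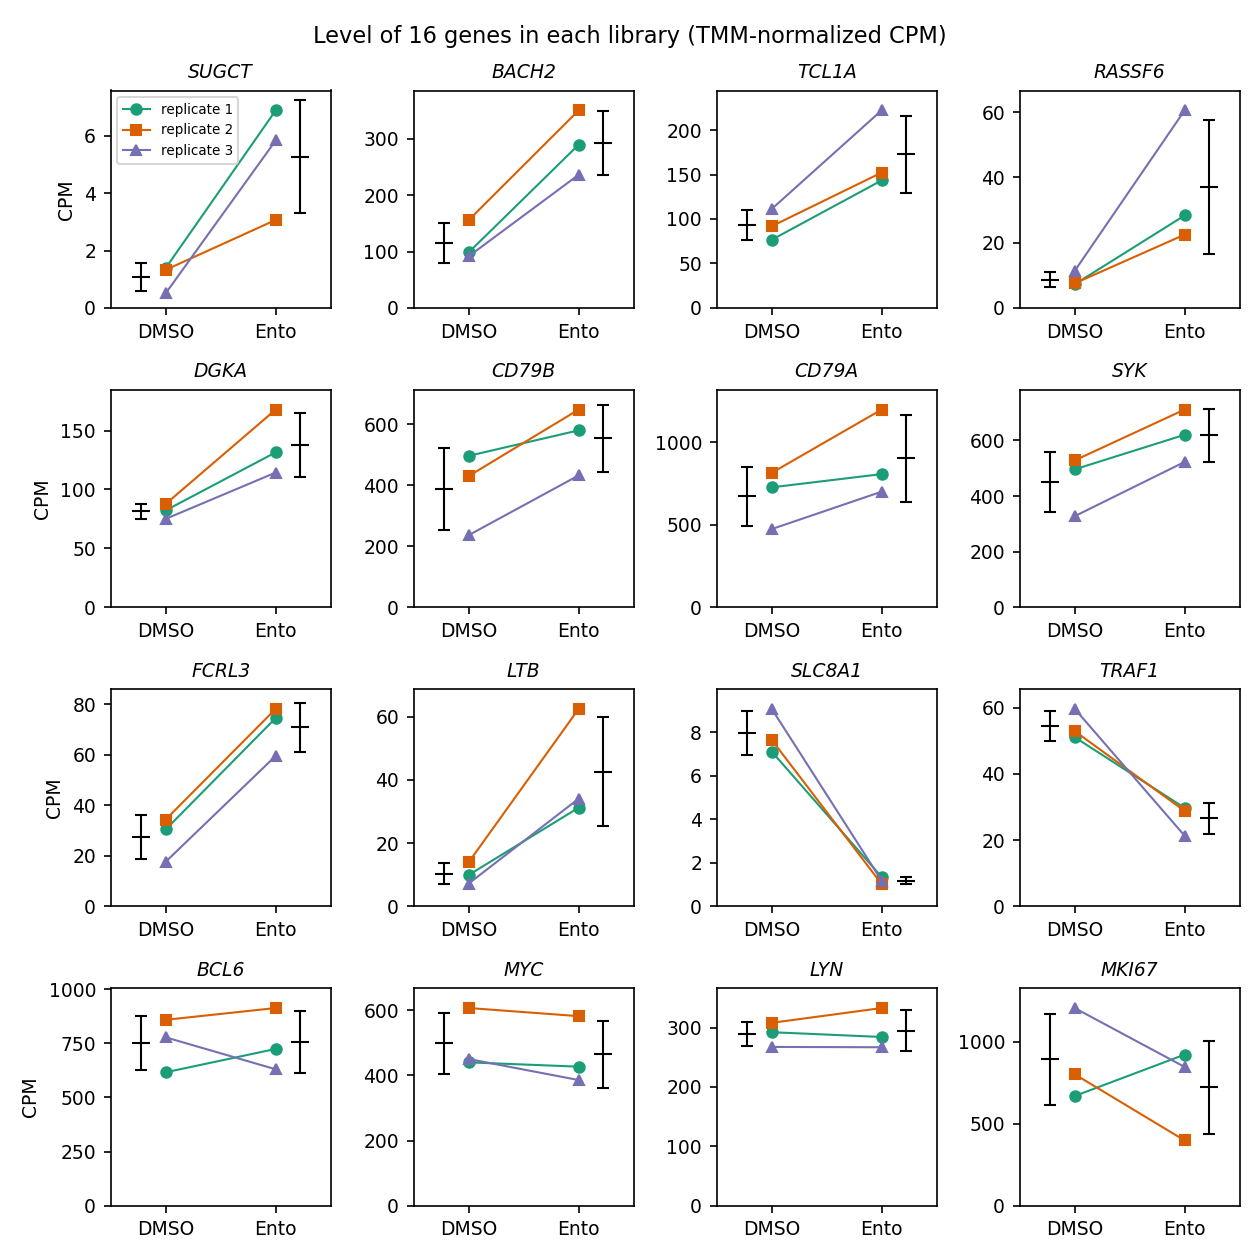
Level of 16 genes in each library (y axis, TMM-normalized CPM from 0) with DMSO and Ento; lines join libraries of the same replicate number, and the black bars give the group mean and SD (n = 3). For SUGCT, BACH2, TCL1A, RASSF6, DGKA, FCRL3, LTB, SLC8A1 and TRAF1 the groups do not overlap; BCL6, MYC, LYN and MKI67 overlap and were not called.

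SYK, the drug target, and several receptor-proximal genes rose with Ento, while 4 other genes of the pathway fell. Of 33 listed genes of BCR signal transmission, 9 rose (27.3%, beside 4.66% of all tested genes) and 4 fell (12.1%, beside 3.66%). The median log2 fold change was 0.13. SYK itself (chromosome 9, 90801787 to 90898549, plus strand) had 496, 528 and 327 CPM with DMSO and 621, 711 and 523 CPM with Ento. It rose in each pair, although the groups overlapped, with replicate 3 lowest in both (log2 fold change 0.47, standard error 0.085, adjusted p = 0.00455). BLK, a SRC-family kinase of B cells, rose from 359.6 ± 39.1 to 471 ± 49.96 CPM (SD, n = 3 each; log2 fold change 0.39, standard error 0.070, adjusted p = 0.00461). The calls of SYK and BLK held without each of the 6 libraries.

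CD79B and CD79A, the signalling chains of the receptor, both rose. CD79B had 496, 430.3 and 236 CPM with DMSO and 580.3, 649 and 433 CPM with Ento (log2 fold change 0.55, standard error 0.11, adjusted p = 0.0107), and its adjusted p was 0.0587 without Ento replicate 2. CD79A had 728, 816 and 474 CPM with DMSO and 808, 1200.2 and 701 CPM with Ento (log2 fold change 0.42, standard error 0.11, adjusted p = 0.0266), and its adjusted p was 0.0709 to 0.140 when any one library but DMSO replicate 1 was left out. Both chains rose least in pair 1, and both groups overlapped. CR2, the complement receptor CD21 of B cells, was low and rose from 0.383 ± 0.201 to 1.21 ± 0.536 CPM (SD, n = 3 each; adjusted p = 0.00584, and 0.0637 without Ento replicate 2). The adaptor BLNK rose by 0.30 on the log2 scale (adjusted p = 0.0277, and 0.0641 to 0.114 when any one library but DMSO replicate 3 was left out). VAV1, an exchange factor for RAC, rose by 0.34 (adjusted p = 0.0307, and 0.0883 to 0.187 when any one library but Ento replicate 3 and DMSO replicate 1 was left out), and PIK3CD, the PI3-kinase catalytic subunit of leucocytes, by 0.29 (adjusted p = 0.0314, and 0.0654 to 0.178 when any one library but DMSO replicate 3 was left out).

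VAV3, another exchange factor, fell, with 21.9, 23.1 and 18.3 CPM with DMSO and 14.5, 12.2 and 14.9 CPM with Ento (log2 fold change −0.60; adjusted p = 0.00675, and 0.0621 without Ento replicate 2). MALT1, the paracaspase that links the receptor to NF-κB, fell by 0.34 on the log2 scale (adjusted p = 0.0220, and 0.0609 to 0.0883 when any one library but DMSO replicate 2 was left out). RASGRP1, which activates RAS, fell by 0.28 (adjusted p = 0.0260, and 0.0708 to 0.141 when any one library but DMSO replicate 1 and DMSO replicate 2 was left out). LYN, BTK and PLCG2 were not called, with log2 fold changes of 0.023, 0.13 and 0.16 and standard errors of 0.070, 0.074 and 0.067. Over the whole list 3 genes rose and 0 fell without Ento replicate 2 (edgeR, adjusted p under 0.05), 5 rose and 1 fell without Ento replicate 1, and 5 rose and 4 fell without DMSO replicate 2. The number that fell was 1 without Ento replicate 3 or DMSO replicate 3 and 2 without DMSO replicate 1. When the model had no term for the replicate number, edgeR called 0 of the 33, and 6 were higher and 3 lower at an unadjusted p under 0.05.

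Among genes that restrain the receptor some rose and others fell. Of 33 tested genes of a list of 36, 6 rose (18.2%, beside 4.66% of all tested genes) and 2 fell (6.06%, beside 3.66%), with a median log2 fold change of 0.15. The counts were 3 and 0 without Ento replicate 1 or Ento replicate 3, 4 and 0 without Ento replicate 2, and 5 to 6 and 1 without any one DMSO library (edgeR). FCRL3, an Fc receptor-like protein with inhibitory tyrosine motifs, had 30.5, 34.4 and 17.7 CPM with DMSO and 74.6, 78.3 and 59.6 CPM with Ento, a rise in each pair of more than 2-fold without overlap (log2 fold change 1.40, standard error 0.12, adjusted p = 2.51e-05). DGKA, the kinase that removes the second messenger diacylglycerol, had 82.2, 87.7 and 75.01 CPM with DMSO and 132, 168 and 114 CPM with Ento (log2 fold change 0.74, standard error 0.077, adjusted p = 8.68e-05). CEACAM1, an inhibitory adhesion molecule, had 7.47, 7.97 and 2.91 CPM with DMSO and 12.7, 17.97 and 10.1 CPM with Ento (log2 fold change 1.19, standard error 0.17, adjusted p = 0.000854). These 3 calls held without each of the 6 libraries. PECAM1, another inhibitory receptor of the immunoglobulin superfamily, rose by 0.84 on the log2 scale (adjusted p = 0.0111, and 0.0577 without Ento replicate 1 and 0.0505 without Ento replicate 3). UBASH3B, a phosphatase that acts on SYK-family kinases, fell by 0.73 on the log2 scale (adjusted p = 0.0290, and 0.0524 to 0.158 when any one library was left out).

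Of 26 plasma-cell and memory genes, 17 were tested, with a median log2 fold change of 0.10. Of these, 4 rose (23.5%, beside 4.66% of all tested genes) and 1 fell (5.88%, beside 3.66%). PRDM1 and IRF4, which drive plasma-cell differentiation, did not pass the filter on low counts. AIM2, a sensor of cytosolic DNA expressed in memory B cells (chromosome 1, 159061599 to 159187843, minus strand), had 54.1, 70.9 and 44.4 CPM with DMSO and 106, 139.6 and 103 CPM with Ento, so that each pair roughly doubled (log2 fold change 1.05, standard error 0.084, adjusted p = 8.96e-06). XBP1, the transcription factor of the secretory programme, was low and had 3.18, 3.21 and 2.16 CPM with DMSO and 7.99, 9.16 and 4.67 CPM with Ento (log2 fold change 1.33, standard error 0.16, adjusted p = 0.000242). GPR183, the oxysterol receptor EBI2 that leads B cells out of the follicle centre, had 0.755, 0.779 and 0.196 CPM with DMSO and 3.28, 3.63 and 2.90 CPM with Ento (log2 fold change 2.60, standard error 0.43, adjusted p = 0.00278). The calls of AIM2, XBP1 and GPR183 held without each of the 6 libraries. BATF, an AP-1 family factor of class switching, had 4.53, 2.70 and 2.51 CPM with DMSO and 1.43, 1.33 and 1.57 CPM with Ento (log2 fold change −1.15, standard error 0.22, adjusted p = 0.00560, and 0.0649 without Ento replicate 1).

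Immediate-early and activation genes did not move one way. Of 27 tested genes of 35 listed, 5 rose (18.5%, beside 4.66% of all tested genes) and 3 fell (11.1%, beside 3.66%). The median log2 fold change was −0.11. The number that rose was 2 without any one Ento library or DMSO replicate 3, and the number that fell was 0 without Ento replicate 2 and 1 without Ento replicate 3. CD69, an early activation antigen that retains lymphocytes in tissue, was low and had 1.11, 0.366 and 0.472 CPM with DMSO and 4.75, 4.04 and 2.41 CPM with Ento (log2 fold change 2.61, standard error 0.37, adjusted p = 0.000829). TAGAP, a GTPase-activating protein of activated lymphocytes, had 29.4, 32.2 and 27.6 CPM with DMSO and 56.01, 74.2 and 46.9 CPM with Ento (log2 fold change 0.97, standard error 0.14, adjusted p = 0.000977). Both calls held without each of the 6 libraries. RGS2, a regulator of G-protein signalling, fell from 16.8 ± 2.03 to 11.5 ± 2.13 CPM (SD, n = 3 each; log2 fold change −0.56; adjusted p = 0.00900, and 0.0561 without Ento replicate 2). NAB2, a corepressor of EGR factors, fell by 0.42 on the log2 scale (adjusted p = 0.0352, and 0.0822 to 0.168 when any one library but DMSO replicate 3 was left out). EGR1, an immediate-early factor of ERK signalling, had 12.3, 5.86 and 9.04 CPM with DMSO and 14.8, 14.3 and 2.947 CPM with Ento. Its Ento libraries spanned a wider range than the DMSO libraries and gave no call (adjusted p = 0.918). MYC, which receptor signals induce, had 440.4, 607 and 451 CPM with DMSO and 427, 582 and 386 CPM with Ento and was not called (log2 fold change −0.11, standard error 0.079, adjusted p = 0.424). Of 14 tested ERK feedback genes (phosphatases, Sprouty and SPRED proteins), SPRED1 alone was called and fell (7.14%, beside 3.66% of all tested genes). It fell by 0.38 on the log2 scale (adjusted p = 0.0286, and 0.0554 to 0.159 when any one library but Ento replicate 2 and DMSO replicate 2 was left out).

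In the NF-κB list of 28 tested genes, 3 rose (10.7%, beside 4.66% of all tested genes) and 1 fell (3.57%, beside 3.66%), with a median log2 fold change of 0.0075. LTB and TRAF1 were the only members called without Ento replicate 2. LTB (chromosome 6, 31580525 to 31582522, minus strand), lymphotoxin β, a membrane ligand that organizes follicles, had 9.94, 13.97 and 7.23 CPM with DMSO and 31.2, 62.5 and 34.1 CPM with Ento. All Ento libraries lay more than 2-fold above the highest DMSO library (log2 fold change 2.03, standard error 0.15, adjusted p = 4.82e-06). TRAF1, an adaptor of TNF receptors and an NF-κB target, moved the other way with 51.1, 52.95 and 59.7 CPM with DMSO and 29.7, 28.8 and 21.3 CPM with Ento (log2 fold change −1.06, standard error 0.15, adjusted p = 0.000666). Both calls held without each of the 6 libraries. CD40, the receptor for T-cell help, rose from 65.6 ± 10.4 to 95.9 ± 38.5 CPM (SD, n = 3 each; adjusted p = 0.0107, and 0.0794 without Ento replicate 2). Of 17 tested members of the TNF receptor superfamily and their ligands, 5 rose (29.4%) and 1 fell (5.88%), beside 4.66% and 3.66% of all tested genes. The median log2 fold change was −0.0039. The number that rose was 1 without Ento replicate 2, 2 without Ento replicate 1 or DMSO replicate 3, and 3 without Ento replicate 3 or DMSO replicate 2. The death ligand TNFSF10 (TRAIL) rose by 0.91 on the log2 scale (adjusted p = 0.0126, and 0.0665 without Ento replicate 1, 0.0647 without Ento replicate 2 and 0.0541 without DMSO replicate 3), and TNFRSF11A, the receptor RANK, fell by 1.42 (adjusted p = 0.0114, and 0.100 without Ento replicate 1 and 0.0610 without Ento replicate 2).

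Targets of FOXO1 and brakes of PI3-kinase were split. Of 31 tested genes, 5 rose (16.1%, beside 4.66% of all tested genes) and 2 fell (6.45%, beside 3.66%). The median log2 fold change was −0.037. The counts were 3 and 0 without Ento replicate 1, 1 and 0 without Ento replicate 2, 4 and 0 without Ento replicate 3, 2 and 4 without DMSO replicate 2, and 6 and 0 without DMSO replicate 3. FOXO1 itself had 155, 171 and 150.5 CPM with DMSO and 197, 229 and 165 CPM with Ento (log2 fold change 0.30; adjusted p = 0.0222, and 0.142 without Ento replicate 1, 0.122 without Ento replicate 2 and 0.0781 without DMSO replicate 2). BCL2L11, the proapoptotic BH3-only protein BIM and a FOXO target, had 100.3, 118 and 93.5 CPM with DMSO and 133, 180.3 and 116 CPM with Ento (log2 fold change 0.45, standard error 0.079, adjusted p = 0.00424), and its call held without each of the 6 libraries. PIK3IP1, an inhibitor of PI3-kinase, rose by 0.38 on the log2 scale (adjusted p = 0.0211, and 0.160 without Ento replicate 2 and 0.0719 without DMSO replicate 2). CDKN1B, the CDK inhibitor p27 and another FOXO target, fell, with 13.5, 5.04 and 15.2 CPM with DMSO and 6.35, 2.66 and 7.47 CPM with Ento. The groups overlapped, with replicate 2 lowest in both (adjusted p = 0.0255, and 0.0504 to 0.154 when any one library but DMSO replicate 2 was left out).

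Of 22 tested homing and adhesion receptors 6 rose (27.3%, beside 4.66% of all tested genes) and 1 fell (4.55%, beside 3.66%), with a median log2 fold change of 0.23. S1PR4 and S1PR1, receptors for sphingosine 1-phosphate, had 0.996 ± 0.440 and 0.272 ± 0.0768 CPM with DMSO and 3.09 ± 0.528 and 0.828 ± 0.164 CPM with Ento (SD, n = 3 each; adjusted p = 0.000977 and 0.0209). The calls of S1PR4 and GPR183 held without each of the 6 libraries, and the adjusted p of S1PR1 was 0.0534 to 0.128 when any one library but DMSO replicate 3 was left out. Without Ento replicate 2, 2 members rose. CXCR4, the dark-zone chemokine receptor, had 68.2, 42.9 and 60.7 CPM with DMSO and 117, 51.7 and 85.1 CPM with Ento. It was higher in each pair, and its adjusted p of 0.0704 missed the threshold. ITGAL, the integrin LFA-1α, fell from 266 ± 18.96 to 214 ± 2.56 CPM (SD, n = 3 each; adjusted p = 0.0160, and 0.0614 without Ento replicate 1, 0.106 without Ento replicate 2 and 0.0556 without Ento replicate 3).

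In the BCL2 family 2 of 17 tested genes rose (11.8%, beside 4.66% of all tested genes) and 1 fell (5.88%, beside 3.66%). The median log2 fold change was −0.11. Beside BCL2L11, HRK, a BH3-only protein that binds BCL2 and BCL-XL, had 2.38, 1.15 and 2.67 CPM with DMSO and 6.10, 6.19 and 4.96 CPM with Ento (log2 fold change 1.45, standard error 0.25, adjusted p = 0.00393), and its call held without each of the 6 libraries. BMF, another BH3-only protein, fell from 91.9 ± 15.4 to 67.6 ± 10.1 CPM (SD, n = 3 each; adjusted p = 0.0242, and 0.0687 to 0.118 when any one library but DMSO replicate 2 and DMSO replicate 3 was left out). The antiapoptotic BCL2 had 368, 402 and 392.5 CPM with DMSO and 427, 492 and 380.1 CPM with Ento and was not called (adjusted p = 0.355).

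The genes of proliferation went different ways in the pairs. All 46 mitosis genes had a negative fitted log2 fold change, with a median of −0.37. Of these, 21 were lower at an unadjusted p under 0.05, beside 11.5% of all tested genes. At an adjusted p under 0.05 edgeR called 2 members lower (4.35%, beside 3.66% of all tested genes), and DESeq2 called 6. The 2 called by edgeR were CENPE, a kinetochore motor (adjusted p = 0.0341, and 0.0626 to 0.196 when any one library but DMSO replicate 1 was left out), and PTTG1, securin (adjusted p = 0.0406, and 0.132 without Ento replicate 1, 0.246 without Ento replicate 2 and 0.143 without DMSO replicate 2). In pair 1, 26 of the 46 were higher with Ento and the median was 0.041. In pair 2 no mitosis gene was higher and the median was −0.99, and in pair 3 it was −0.080 with 13 higher. Without Ento replicate 2 the median was −0.24 and edgeR called 0 members (4 were lower at an unadjusted p under 0.05), without DMSO replicate 2 it was −0.047 with 0 called (3 at that level), and without DMSO replicate 1 it was −0.58 with 15 members lower. With no filter on low counts, 35 mitosis genes were called. The 52 genes of DNA replication and E2F had a median of −0.19 in the fit and of 0.18, −0.65 and 0.036 in the 3 pairs. Of these, 1 rose and 1 fell (1.92% each, beside 4.66% and 3.66% of all tested genes). E2F3, an activating E2F factor, rose by 0.31 (adjusted p = 0.0268, and 0.0569 to 0.136 when any one library but DMSO replicate 2 was left out), and the licensing factor CDT1 fell by 0.71 on the log2 scale (adjusted p = 0.0409, and 0.0831 to 0.177 when any one library but DMSO replicate 1 was left out). Without DMSO replicate 1, 8 members of that list fell, and without DMSO replicate 2, 3 rose and the median was 0.099. Of 19 tested G1 cyclins and CDK inhibitors, CDKN1A and CDKN1B fell (10.5%, beside 3.66% of all tested genes) and the median was −0.14. CDKN1A, the CDK inhibitor p21, was low and fell from 2.54, 1.42 and 6.60 CPM to 1.05, 0.870 and 0.786 CPM (adjusted p = 0.0194, and 0.0901 without Ento replicate 1, 0.110 without Ento replicate 3 and 0.0560 without DMSO replicate 3). Its log2 fold change was −1.89, and −0.98 without DMSO replicate 3, the highest library. CCND3, the D cyclin of germinal-centre cells, had 54.1 ± 2.63 and 56.2 ± 2.25 CPM (SD, n = 3 each) and was not called.

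The MYC network and ribosome biogenesis list had a median of 0.21 over 39 tested genes. Of these, 3 rose (7.69%, beside 4.66% of all tested genes) and 2 fell (5.13%, beside 3.66%). NOP56, a nucleolar protein of ribosome assembly, rose from 150.03 ± 19.1 to 206 ± 26.9 CPM (SD, n = 3 each; adjusted p = 0.0103, and 0.0583 without Ento replicate 1). UBTF, a factor of RNA polymerase I, rose by 0.36 (adjusted p = 0.0183, and 0.0651 to 0.0915 when any one library but DMSO replicate 1 and DMSO replicate 2 was left out). The MYC antagonists MXI1 and MXD3 fell by 0.44 and 0.47 on the log2 scale, and the adjusted p of MXI1 was 0.0203, and 0.0540 to 0.122 when any one library but DMSO replicate 1 and DMSO replicate 2 was left out, that of MXD3 0.0327, and 0.0716 to 0.191 when any one library but Ento replicate 3 and DMSO replicate 1 was left out. The number that rose went from 3 to 15 without DMSO replicate 2, to 1 without Ento replicate 2 or DMSO replicate 3 and to 0 without Ento replicate 1. Glycolysis and hypoxia genes gave 0 calls among 31 tested with edgeR and with DESeq2, with a median of −0.12 and 5 lower at an unadjusted p under 0.05 (4 with DESeq2). In other edgeR fits, 3 of them fell and 19 were lower at an unadjusted p under 0.05 without DMSO replicate 1, 1 fell without DMSO replicate 2, 3 fell when the fit held the Ento and DMSO libraries alone, and 11 fell with no filter on low counts. Of 31 genes of cholesterol and fatty acid synthesis 1 rose (3.23%) and 2 fell (6.45%), beside 4.66% and 3.66% of all tested genes. Their median was −0.16, and 5 fell without DMSO replicate 2 and 0 without Ento replicate 2. The fatty acid elongase ELOVL6 fell by 0.73 on the log2 scale (adjusted p = 0.00882, and 0.0706 without Ento replicate 2). Of 30 lysosome and autophagy genes 1 rose and 1 fell (3.33% each, near the shares of all tested genes). Their median was 0.012, and 4 fell without DMSO replicate 2. GABARAPL1, an autophagosome protein of the ATG8 family, rose by 0.80 on the log2 scale (adjusted p = 0.0489, and 0.0780 to 0.236 when any one library but DMSO replicate 2 was left out).

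Several surface antigens of B cells rose. Of 20 tested genes 8 rose (40.0%, beside 4.66% of all tested genes) and 1 fell (5.0%, beside 3.66%). The median log2 fold change was 0.32, and the median was larger in pair 2 (0.43) than in pairs 1 and 3 (0.13 and 0.30). Of the genes that rose, 1 kept its call without each of the 6 libraries. The number that rose was 2 without Ento replicate 2, 4 without Ento replicate 1 or Ento replicate 3 and 5 without DMSO replicate 2 or DMSO replicate 3. CD99, an adhesion glycoprotein, had 224, 233 and 220.1 CPM with DMSO and 146, 205 and 142 CPM with Ento (log2 fold change −0.48, standard error 0.084, adjusted p = 0.00401). The SLAM receptors CD48 and SLAMF1, which bind each other's family on neighbouring lymphocytes, both fell, among 7 tested members (28.6%, beside 3.66% of all tested genes) with a median of 0.069. CD48 had 217, 184 and 176 CPM with DMSO and 133, 159 and 121 CPM with Ento (log2 fold change −0.48, standard error 0.083, adjusted p = 0.00349), and SLAMF1 was low, with 0.954, 1.19 and 3.06 CPM with DMSO and 0.252, 0.409 and 0.295 CPM with Ento (log2 fold change −2.39, standard error 0.45, adjusted p = 0.00545). These 3 calls held without each of the 6 libraries. In the HLA class II list, all 17 fitted log2 fold changes were positive, with a median of 0.22. At an adjusted p under 0.05, 3 of them rose (17.6%, beside 4.66% of all tested genes). These were HLA-DOB, HLA-DMA and HLA-DMB, which edit the peptide load of class II molecules and rose by 0.38 to 0.44 on the log2 scale. HLA-DOB had an adjusted p of 0.0167, and 0.122 without Ento replicate 2, 0.0505 without Ento replicate 3 and 0.0651 without DMSO replicate 2. That of HLA-DMA was 0.0206, and 0.0680 to 0.113 when any one library but DMSO replicate 1 and DMSO replicate 2 was left out. That of HLA-DMB was 0.0409, and 0.0643 to 0.211 when any one library but DMSO replicate 1 was left out. The number of members that rose was 6 without DMSO replicate 1 and 1 without Ento replicate 1, Ento replicate 3, DMSO replicate 2 or DMSO replicate 3. Without Ento replicate 2 edgeR called 0 of the 17, and 4 were higher at an unadjusted p under 0.05.

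Cytokine receptors and STAT genes, interferon-stimulated genes and ATF4 targets each held genes that rose and genes that fell. Of 28 tested interferon-stimulated genes, 3 rose (10.7%, beside 4.66% of all tested genes) and 2 fell (7.14%, beside 3.66%). Their median was 0.046, and 2 rose and 1 fell without Ento replicate 1, Ento replicate 2 or DMSO replicate 2. The RNA exonuclease ISG20 rose from 59.5, 70.3 and 42.2 CPM to 89.5, 138 and 80.8 CPM (log2 fold change 0.84, standard error 0.11, adjusted p = 0.000313) and the oligoadenylate synthetase OAS1 from 29.5, 23.1 and 18.04 CPM to 44.5, 36.5 and 33.5 CPM (log2 fold change 0.71, standard error 0.11, adjusted p = 0.00110), both without overlap. In the ATF4 list 5 of 28 fell (17.9%, beside 3.66% of all tested genes) and 1 rose (3.57%, beside 4.66%), with a median of −0.18. The number that fell was 1 without Ento replicate 1, 2 without Ento replicate 2 or Ento replicate 3, and 3 without DMSO replicate 2 or DMSO replicate 3. SLC7A11, the cystine transporter, had 37.04, 28.1 and 41.1 CPM with DMSO and 17.997, 12.9 and 13.5 CPM with Ento (log2 fold change −1.27, standard error 0.19, adjusted p = 0.00111), while PSPH, which makes serine, rose from 35.8 ± 4.37 to 51.02 ± 4.60 CPM (SD, n = 3 each; adjusted p = 0.00615). The calls of ISG20, OAS1, SLC7A11 and PSPH held without each of the 6 libraries. In the list of cytokine receptors and STAT feedback 5 of 28 rose (17.9%, beside 4.66%) and 4 fell (14.3%, beside 3.66%), with a median of −0.078. The counts were 2 and 1 without Ento replicate 1, 1 and 2 without Ento replicate 2, and 3 and 2 without DMSO replicate 1, and 2 fell without Ento replicate 3 or DMSO replicate 3. The kinase JAK1 rose by 0.40 on the log2 scale (adjusted p = 0.00537, and 0.0517 without Ento replicate 1), and STAT6, the transducer of IL-4 signals, by 0.41 (adjusted p = 0.00905, and 0.0789 without Ento replicate 2). The low-affinity IgE receptor FCER2, a target of IL-4 signals, had 1.43, 3.85 and 0.589 CPM with DMSO and 3.78, 14.8 and 1.23 CPM with Ento. Ento replicate 2 was far above the others and the groups overlapped (adjusted p = 0.00589, and 0.0878 without Ento replicate 2).

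**Figure D3:**
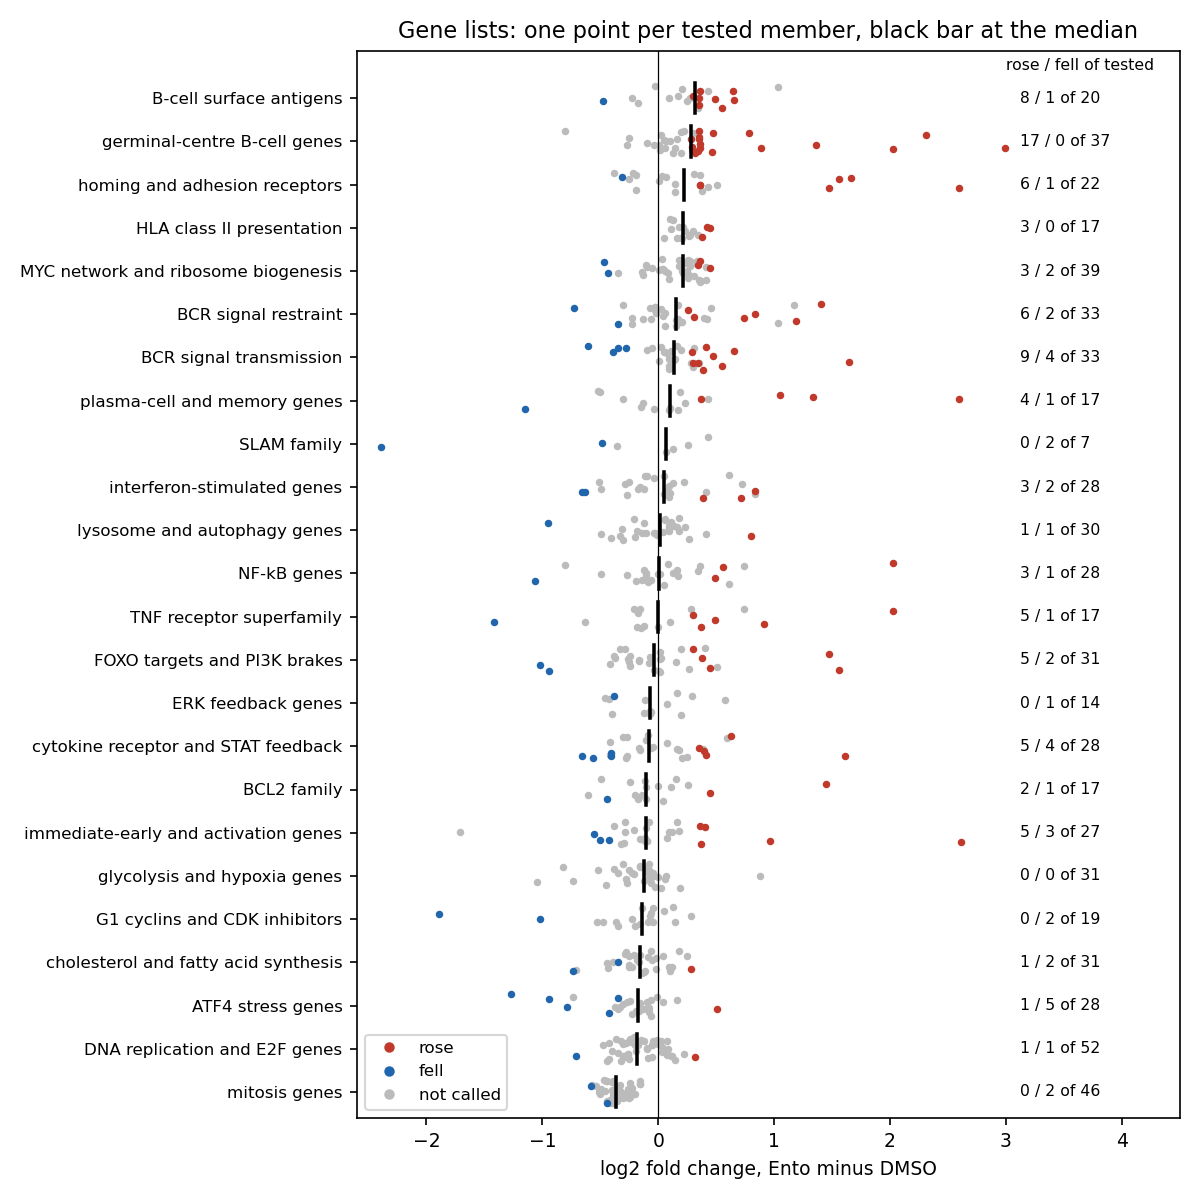
Gene lists by row, with each tested member as a point at its log2 fold change, Ento minus DMSO (x axis); red points rose, blue points fell, grey points were not called, and the black bar is the median of the list. Of the germinal-centre genes 17 of 37 are in red, while the mitosis genes all lie below 0 with 2 of 46 in blue.

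Outside these lists, the genes named for their size or p-value included several that are not specific to B cells. The transporter gene ABCA6 had 5.56, 7.65 and 3.22 CPM with DMSO and 16.8, 30.3 and 12.2 CPM with Ento (log2 fold change 1.84, standard error 0.14, adjusted p = 6.33e-06). The protease gene TMPRSS15 and FCGBP, an IgG Fc-binding mucin-like protein, rose from 1.24 ± 0.801 to 6.67 ± 3.41 and from 2.08 ± 1.33 to 7.82 ± 4.07 CPM (SD, n = 3 each; log2 fold change 2.49 and 1.93). AAK1, an adaptor-associated kinase, rose by 1.43 on the log2 scale (adjusted p = 0.0217, and 0.0697 to 0.134 when any one library but Ento replicate 3 and DMSO replicate 1 was left out).

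SLC8A1 (chromosome 2, 40097270 to 40611053, minus strand), the sodium-calcium exchanger NCX1, fell most among genes that reached a mean of 5 CPM and fell in all 3 pairs. It had 7.11, 7.65 and 9.08 CPM with DMSO and 1.35, 1.02 and 1.18 CPM with Ento, so that the lowest DMSO library was over 5-fold above the highest Ento library (log2 fold change −2.74, standard error 0.20, adjusted p = 4.82e-06). S100A4, a calcium-binding protein of motile cells, had 37.5, 28.5 and 18.9 CPM with DMSO and 13.5, 6.96 and 9.43 CPM with Ento (log2 fold change −1.49, standard error 0.15, adjusted p = 6.14e-05). MELTF, a membrane iron-binding transferrin homologue, and TSPAN18, a tetraspanin, fell about 2-fold from 59.1 ± 4.84 to 30.4 ± 2.39 and from 33.8 ± 6.71 to 16.2 ± 1.91 CPM (SD, n = 3 each; adjusted p = 9.09e-06 and 0.000145). RRAGD, a RAG GTPase that relays amino acid supply to mTORC1, fell from 11.01, 7.15 and 10.6 CPM to 3.41, 2.56 and 3.63 CPM (log2 fold change −1.58, standard error 0.20, adjusted p = 0.000380).

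The adhesion molecule NECTIN1 had 7.43, 6.69 and 29.1 CPM with DMSO and 3.11, 2.71 and 4.76 CPM with Ento, with DMSO replicate 3 far above the other DMSO libraries (log2 fold change −1.89, standard error 0.37, adjusted p = 0.00692). Without DMSO replicate 3 its log2 fold change was −1.07 (adjusted p = 0.0167). LRRTM4, a neuronal leucine-rich repeat protein, and the noncoding LRRTM4-AS1, which lies within its span on the opposite strand, fell by 1.41 and 1.66 on the log2 scale. DENND1B, C12orf77 and KLHL30 fell by 1.40, 1.39 and 1.603 on the log2 scale. SPARCL1, an extracellular matrix protein, was near the detection limit with 1.63, 1.01 and 2.71 CPM with DMSO and 0.294, 0.256 and 0.246 CPM with Ento (log2 fold change −2.69, standard error 0.33, adjusted p = 0.000271). TNNT3, a troponin, fell by 1.68 with Ento replicate 2 at 12.03 CPM and the other Ento libraries at 3.99 and 2.80 CPM, and its adjusted p was 0.00720, and 0.0509 without Ento replicate 1. Apart from AAK1 and TNNT3, all calls named in these paragraphs on genes outside the lists held without each of the 6 libraries.

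Promoters of the DEGs were searched for 7 motifs on both strands, in the window from 250 bases before to 50 after the start of transcription (RefSeq, GRCh38.p14), which the tables gave for 10473 of the tested genes, 115 of the overexpressed and 59 of the underexpressed DEGs. The FOXO core TGTTTAC was in 10 promoters of overexpressed DEGs (8.70%), in 3 of underexpressed DEGs (5.08%) and in 2.40% of all. The AP-1 site TGACTCA was in 9.57%, 1.69% and 2.99%, the octamer part ATGCAAA in 8.70%, 11.9% and 3.16%, and the E2F core (TTCCCGC or TTGGCGC) in 4.35%, 1.69% and 14.2%. The E-box CACGTG was in 6.96%, 5.08% and 10.2%, the EGR core GCGTGGG in 6.09%, 3.39% and 9.17%, and the ETS core GAGGAAG in 14.8%, 15.3% and 14.5%. Base composition differed as well, with a median GC content of 58.0% in overexpressed DEGs and 64.7% in underexpressed DEGs and in all promoters, and its part in these shares was not tested. Among promoters under 50% GC, the FOXO core was in 7 of 36 overexpressed DEGs (19.4%) and in 6.14% of all 1042. The octamer part was in 16.7% and 9.79% there, the AP-1 site in 8.33% and 6.81%, and the E-box in 5.56% and 4.13%. The ETS core was in 8.33% and 14.0%, the E2F core in 0% and 2.69%, and the EGR core in 0% and 1.82%. Whatever the GC content, the FOXO core was in 3.94% of 533 promoters of genes that rose and in 2.22% of 495 of genes that fell. In the promoters under 50% GC these differences in shares were also not tested.

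Of the genes named above that were overexpressed DEGs, RASSF6, LTB, ABCA6 and TMPRSS15 had the FOXO core, and their promoters are shown because those genes rose by at least 1.84 on the log2 scale with Ento. The core, in capitals, starts 19 bases before the start of transcription of RASSF6 (chr4:73620582-73620881), 123 bases before that of LTB (chr6:31582376-31582675), 184 before that of ABCA6 (chr17:69141846-69142145) and 150 before that of TMPRSS15 (chr21:18403736-18404035), all on the minus strand of the chromosome. In RASSF6 and LTB the capitals read GTAAACA, the reverse complement of the core. AIM2 (chr1:159076717-159077016, minus strand) held the AP-1 site, in capitals, 155 bases before its start. For AIM2 and TMPRSS15 the RefSeq start used lies inside the gene span of GENCODE v44, which on the minus strand begins at 159187843 and 18485879. Windows at other starts of these genes were not searched.
RASSF6: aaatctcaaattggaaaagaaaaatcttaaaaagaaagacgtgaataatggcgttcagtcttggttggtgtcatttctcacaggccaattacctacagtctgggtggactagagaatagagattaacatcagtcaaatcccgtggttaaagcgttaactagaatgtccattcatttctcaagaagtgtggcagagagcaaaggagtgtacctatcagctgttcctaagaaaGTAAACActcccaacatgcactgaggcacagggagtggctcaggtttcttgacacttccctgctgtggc
LTB: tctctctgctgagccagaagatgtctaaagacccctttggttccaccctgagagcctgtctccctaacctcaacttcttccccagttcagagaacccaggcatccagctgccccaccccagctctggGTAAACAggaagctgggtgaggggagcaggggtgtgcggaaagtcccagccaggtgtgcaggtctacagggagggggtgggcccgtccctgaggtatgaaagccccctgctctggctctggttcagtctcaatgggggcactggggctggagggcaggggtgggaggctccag
ABCA6: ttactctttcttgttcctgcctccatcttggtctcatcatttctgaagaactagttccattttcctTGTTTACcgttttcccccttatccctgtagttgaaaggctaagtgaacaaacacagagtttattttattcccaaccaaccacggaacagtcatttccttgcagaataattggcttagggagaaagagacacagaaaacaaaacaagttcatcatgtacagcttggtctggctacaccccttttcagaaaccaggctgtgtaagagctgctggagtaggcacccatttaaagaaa
TMPRSS15: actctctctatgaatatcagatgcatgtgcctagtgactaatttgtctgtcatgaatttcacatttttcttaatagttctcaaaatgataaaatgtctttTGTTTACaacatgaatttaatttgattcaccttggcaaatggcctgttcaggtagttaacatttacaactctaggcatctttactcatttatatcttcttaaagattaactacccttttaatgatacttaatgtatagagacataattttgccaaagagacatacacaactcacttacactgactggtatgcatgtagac
AIM2: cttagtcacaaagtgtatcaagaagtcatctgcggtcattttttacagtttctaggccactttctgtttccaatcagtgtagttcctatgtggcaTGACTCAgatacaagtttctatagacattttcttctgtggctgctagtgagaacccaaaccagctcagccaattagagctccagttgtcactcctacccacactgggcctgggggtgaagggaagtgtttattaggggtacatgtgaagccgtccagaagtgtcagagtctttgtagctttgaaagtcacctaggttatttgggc

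Whether Ento had a like effect in the presence of AZD was read from Ento+AZD against AZD, which shares no library with Ento against DMSO. Of the 185 overexpressed DEGs, 180 (97.3%) were also higher with Ento+AZD than with AZD, 167 of them in all 3 pairs (25.9% of all tested genes were higher in all 3 pairs), and 114 were called. Of the 90 underexpressed DEGs, 80 (88.9%) were also lower, 62 in all 3 pairs (beside 26.5%), and 28 were called. Over all tested genes 11.9% were called in this comparison, 5.85% higher and 6.04% lower. The median log2 fold change of the overexpressed DEGs was 1.36 against DMSO and 1.15 on top of AZD, and that of the underexpressed DEGs −1.29 and −0.77. The DEGs were chosen on the first value of each pair.

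Among single genes, BACH2 rose by 1.36 against DMSO and by 1.71 on top of AZD (adjusted p = 8.83e-07), AIM2 by 1.05 and 1.13 (6.43e-06) and RASSF6 by 2.03 and 2.47 (0.000318). SLC8A1 fell by 2.74 and 1.97 (9.91e-05). TNNT3 and TRAF1 had log2 fold changes of 0.038 and −0.37 on top of AZD and were not called there. A test of the difference itself, the interaction of the agents, called 0 genes with edgeR. At an unadjusted p under 0.05, 711 genes had a positive and 941 a negative interaction (4.22% and 5.59%). Among them were 41 of the overexpressed (22.2%) and 34 of the underexpressed DEGs (37.8%), beside 9.81% of all tested genes. The DEGs were chosen on their value against DMSO, which the interaction subtracts. Their shares are therefore not independent of that choice. With no filter on low counts the interaction called 278 genes.

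The single agents were also set against each other in the 3 Ento and 3 AZD libraries. This comparison called 14.7% of all tested genes, 8.99% higher and 5.73% lower with Ento, and it shares the Ento libraries with that against DMSO. Of the overexpressed DEGs, 135 were higher with Ento than with AZD, and of the underexpressed DEGs 29 were lower. RASSF6 differed most among the germinal-centre genes above, by 4.62 on the log2 scale (adjusted p = 2.29e-07), followed by SUGCT (3.84) and BACH2 (1.74). Against DMSO, RASSF6 and SUGCT rose by 2.03 and 2.31 with Ento, so that these differences also hold the change with AZD. The paper reports RASSF6 as significantly lower with AZD alone. XBP1 differed by 0.19 (adjusted p = 0.426) and SLC7A11 by −0.18 (0.577), which gave no call.

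**Figure D4:**
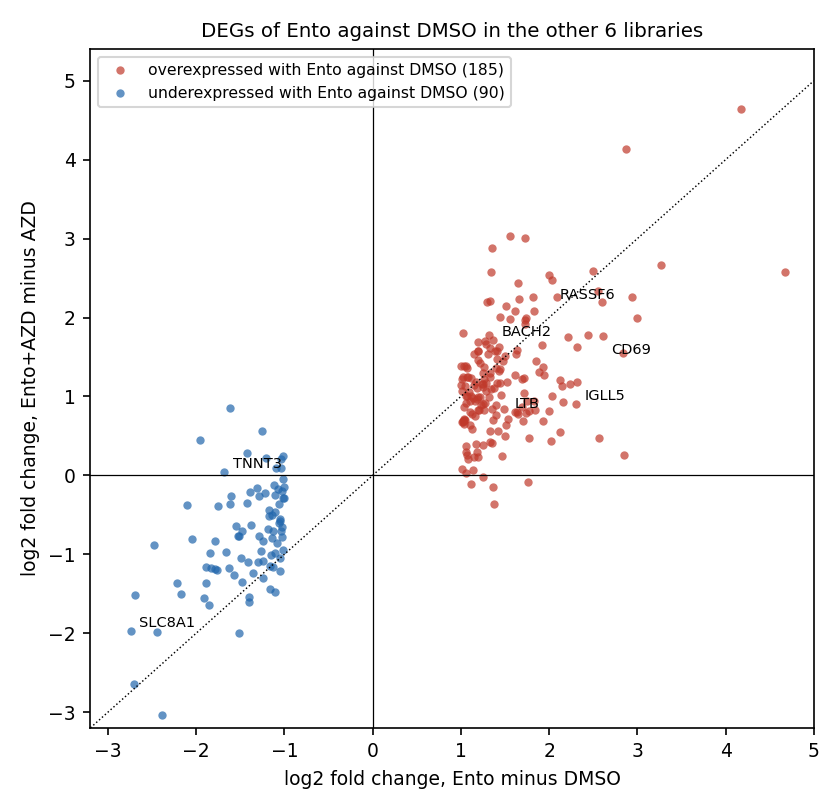
The 275 DEGs of Ento against DMSO by their log2 fold change there (x axis) and in Ento+AZD minus AZD (y axis), measured in the other 6 libraries, with overexpressed DEGs in red, underexpressed DEGs in blue and the dotted line at equal values. Of the red points 180 of 185 lie above 0 on the y axis, and of the blue points 80 of 90 lie below it.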

How the data were processed

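Polyadenylated RNA of SU-DHL-4 was sequenced as single reads. The authors trimmed the reads, aligned them to GRCh38.p13 and deposited raw read counts by gene symbol, made with Rsubread and not normalized; hg19 also stands in the submitters' processing notes. Counting settings for strand and multiply matching reads are not given in the sources used here. A deposited table of log2 values was not used.

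Counts were filtered with filterByExpr by group (minimum count 10, minimum total 15), scaled by TMM and fitted with edgeR 4.0.16 in R 4.3.3 on all 12 libraries, with group and replicate number as terms, the quasi-likelihood test and Benjamini-Hochberg adjustment over 16835 genes. The standard error was taken as |log2 fold change| / sqrt(F). A DEG required |log2 fold change| over 1 beside an adjusted p under 0.05, and listed genes rose or fell at an adjusted p under 0.05. The fit was tested on simulated counts. DESeq2 1.42.0, other scalings, filters and library subsets were alternatives.

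Same-numbered Ento and DMSO libraries correlated at 0.295 to 0.536 in their deviations from group means, others at −0.487 to −0.068. Deviations sum to 0 within a group, so that positive values for same-numbered libraries go with negative values for others. The numbers, from the sample labels, were treated as pairs.

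Named genes were the 12 largest DEGs in each direction with a mean of at least 5 CPM and the same direction in all 3 pairs (leaving out LOC symbols), the 6 smallest p-values in each direction, up to 4 members per list and direction, and genes of the pathway; POU2AF1, ELL3, VAV1, PIK3CD, IGKC, IGLC3, IGLC5, the heavy chain genes and the genes at the count floor lie outside that rule and were named after their values were seen. Some genes that the rule names are not reported here. Members and lists were chosen with earlier results of these data known. Coordinates are from GENCODE v44. For 46 of 129 named genes, among them BACH2, TCL1A, FCRL3, DGKA, CEACAM1, TAGAP, SLC7A11, SLC8A1, MELTF, TSPAN18 and NECTIN1, an exon overlaps one of another gene on the opposite strand, whose reads cannot be told apart without strand.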

Additional observations from a re-analysis of the deposited data

How the results depend on the processing

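All 275 DEGs of Ento against DMSO kept their sign in every alternative fit that tested them. Their number was 275 (185 over- and 90 underexpressed) in the fit used above and 136 (93 and 43) with a minimum count of 50. It was 154 (105 and 49) at an adjusted p under 0.01 and 1401 (784 and 617) without a fold change threshold. Leaving out 1 library gave 160 to 293 DEGs (103 to 194 overexpressed, 47 to 108 underexpressed) and 427 to 1332 genes at an adjusted p under 0.05, with the lowest counts without Ento replicate 2 (160, 103 and 427) and without Ento replicate 1 (47 underexpressed). Without replicate 1 in all groups there were 179 DEGs (55 underexpressed) and 431 genes called, without replicate 2 106 overexpressed DEGs and 608 genes called, and without replicate 3 58 underexpressed DEGs and 582 genes called. With no filter on low counts 2294 genes were called in place of 1401, and the interaction called 278 genes in place of 0, of which 276 pass the filter; the cause was not tested. DESeq2 also called 1401 genes, of which 1227 were among the 1401 of edgeR. It gave 190 DEGs (126 and 64), and 184 of the 275 DEGs of edgeR were among them.

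Without the replicate block there were 19 DEGs (14 and 5) and 36 genes at an adjusted p under 0.05. Of the 275 DEGs of the fit with the block, 12 were then called in the same direction in Ento+AZD against AZD in place of 142. In the same way 87 of the 275 changed further with Ento than with AZD in place of 164. Since the replicate numbers pair the libraries, the fit without the block sets the differences between pairs against the effect. At these depths a gene with no more than 3 counts in each library of a group gives a bound and no fold change.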

Other observations

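Immunoglobulin genes, chosen after their values were seen, differed by chain in the size of their change. SU-DHL-4 libraries counted IGKC, the κ constant region, 19855, 17791 and 20293 times with DMSO and 26504, 24980 and 24386 times with Ento, 800.5 and 1197 CPM (log2 fold change 0.58, edgeR, adjusted p = 0.000381). The λ genes IGLL5, IGLC2, IGLC3 and IGLC5 were counted at low level and rose by 2.31, 2.12, 2.56 and 2.84 on the log2 scale (adjusted p = 0.000162, 0.000428, 0.000271 and 0.00382). IGLL5 had 8.58, 15.99 and 2.947 CPM with DMSO and 52.4, 45.2 and 29.5 CPM with Ento, with every Ento library above the DMSO range and DMSO replicate 3 lowest, and its log2 fold change was 2.94 without DMSO replicate 2. The λ constant genes are near-identical copies and IGLL5 shares exons with IGLC1 and IGLJ1, so that the rises of these 4 symbols are not independent of each other. Of the γ heavy chain genes, IGHG2 rose by 0.36 (adjusted p = 0.0416), and IGHG4, IGHG3 and IGHG1 had log2 fold changes of 0.36, 0.32 and 0.17 (adjusted p = 0.0522, 0.0948 and 0.256). IGHM held at most 1 count in a DMSO library and at most 6 with Ento, and IGHD held none in the 6 libraries.

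MUC16, an epithelial mucin, held 0, 0 and 2 counts with DMSO and 19, 13 and 21 with Ento, and CDHR3, a cadherin-related protein, held 1, 3 and 1 and 11, 16 and 7 counts. Against the floor of 3 counts per library they were at least 6.66-fold and 4.34-fold higher, for counting error only. RAPH1 and BAIAP2, both linked to the actin cytoskeleton, held 6, 6 and 23 and 15, 9 and 17 counts with DMSO and at most 3 in each Ento library, and were at least 3.32-fold and 3.93-fold lower. Without the highest DMSO library, replicate 3 for both, the bounds were 1.80-fold and 3.54-fold (chosen after seeing the data).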
